A study of Mus musculus with 6 samples.

Results

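The genes described here encode chromatin remodellers and histone or DNA modifiers: SWI/SNF, ISWI and CHD remodelling proteins, ARID proteins, histone deacetylases, histone demethylases, KMT2 methyltransferases, Ezh and Cbx proteins, DNA methyltransferases and TET enzymes. They were taken by symbol (Smarca to Smarce, Chd, Arid, Hdac, Kdm, Kmt2, Ezh, Cbx, Dnmt and Tet genes) from the array's annotation, among probe sets that name exactly 1 gene. The rule gave 75 genes, measured by 196 probe sets, of 18194 genes named in this way. Each gene is represented by its brightest probe set over the 6 arrays. A filter on dim genes, the median of all probe sets, left 11091 genes for testing. Of the 75 genes, 71 passed it, and Arid5a, Cbx7, Dnmt3l and Tet3 did not.

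Nucleosomes limit access to DNA. Remodellers use ATP to slide or remove them, while deacetylases, demethylases and methyltransferases change the chemical marks on histone tails. In the developing brain the SWI/SNF complex, also called BAF, is known for exchanging subunits as neural progenitors give rise to neurons. Polycomb proteins and DNA methyltransferases keep genes silent, and the TET enzymes oxidise methylated cytosine.

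Total RNA came from hand-dissected mouse embryonic forebrain, cut at the caudal limit that the lateral ventricles reach. The 6 groups were wild type and Fezf1-/- Fezf2-/- at embryonic day 9.5 (E9.5), E10.5 and E12.5, with 1 Affymetrix array each. The double knockout lacks a pair of related zinc-finger repressors of the early forebrain and is called the knockout below. The labels name no strain, sex or number of embryos per array, and no group has a replicate. P-values below therefore rest on how far the genotype difference of a gene varied between ages, moderated over all genes. That spread may be technical, and a true genotype difference that changes with age cannot be told apart from it. Either one widens the SE.

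The values are probe set signals, quantile-normalised between arrays, and differences are on the log2(signal + pseudocount) scale, with a pseudocount of 6.50. That scale understates the change of dim genes. As a check of the labels, Fezf2 had signals ordered by age in the wild-type arrays (78.9, 146, then 249), and the knockout arrays had 0.458, 0.904 and 1.66. Fezf1 stayed measurable in the knockout, at 97.7, 78.4 and 49.5 against 251, 143 and 174 in wild type (-1.27 ± 0.17 over the ages). Where its probe set lies relative to the deleted part was not analysed here, so Fezf1 neither checks the labels nor goes against them. The arrays of the 2 genotypes at 1 age correlated at 0.982 to 0.988 over all tested genes. Before normalisation the arrays differed in level with age, with medians from 14.2 (wild type, E10.5) to 37.1 (knockout, E12.5). Scaling therefore bears on each change with age: the median change of all tested genes from E9.5 to E12.5 was -0.14 after quantile normalisation, -0.02 with a common trimmed mean and 0.40 on the values as deposited.

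The makeup of the tissue changed with age. All 10 early neuron markers were higher at E12.5 than at E9.5 in limma's test under each of the 3 scalings. Their summed signal at E9.5 was 539 (wild type) and 635 (knockout), followed by 2362 and 1382 at E10.5 and by 14865 and 15230 at E12.5. Of 10 progenitor markers 8 were higher at E12.5 and 1, Prom1, was lower (-0.21 ± 0.08, not under all 3 scalings). Of 9 tested cell division genes 5 were lower (4 under all 3 scalings) and 1 higher, and their summed signal went from 22429 and 22828 at E9.5 to 17606 and 18782 at E12.5. Surface ectoderm markers were lower in 6 of 7 tested cases, with summed signals of 1463 and 1733 at E9.5 and 146 and 142 at E12.5. Head mesenchyme markers were lower in 7 of 10 cases (5 under all 3 scalings) and higher in 2, with sums of 3692 and 4883 at E9.5 and 2595 and 1772 at E12.5. Erythroid markers were lower in 4 of 5 tested cases (3 under all 3 scalings), with sums of 23182 and 23668 at E9.5 and 13962 and 17415 at E12.5. Endothelial markers were lower in 3 of 7 cases and in none of them under all 3 scalings, with 1 higher, and their sums were 599 and 632 at E9.5 and 466 and 463 at E12.5. No marker was listed at 0, and Rax, Krt14, Hba-a1, Aif1, Cx3cr1, Ptprc, Kcne2 and Kl lay under the filter on dim genes. The forebrain markers Otx2, Six3, Emx2 and Lhx2 were all above it. Some markers also differed between genotypes at an age. Knockout minus wild type at E10.5 was -1.08 for Emx2, -1.06 for Lhx2, -0.22 for Six3 and 0.63 for Otx2. For the progenitor marker Hes5 it was 1.69 at E9.5 and 1.18 at E10.5. The choroid plexus marker Ttr had signals of 2855 (wild type) and 278 (knockout) at E12.5. The part of these shifts and differences in the results below was not tested. In dissected tissue, fewer cells of a type and less RNA per cell cannot be told apart.

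Chromatin genes differed far more between ages than between genotypes. Across the 71 tested members, 41 rose and 15 fell from E9.5 to E12.5, and none passed the test for genotype. The age test (limma with genotype as a term, E12.5 minus E9.5 over both genotypes, Benjamini-Hochberg adjusted p under 0.05) called most genes of any kind: 25.9% of all tested genes were higher and 36.9% lower, together 62.8%. Members were higher in 57.7% of cases and lower in 21.1%. The counts of families and lists below stand against the same shares of all tested genes. The median change of the members lay 0.59 above that of all tested genes, and no list test was made. With the mean of all probe sets of a gene it lay 0.24 above. At least 2-fold and passing were 14 members upward (19.7%, against 10.3% of all tested genes) and 4 downward (5.63%, against 13%).

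The split between higher and lower depended on the scaling. It was 52 to 9 for members on the values as deposited and 42 to 14 with a common trimmed mean. For all tested genes the share of calls that were higher went from 41.2% to 76.6% on the values as deposited and to 48.9% with the trimmed mean. Under all 3 scalings, 38 members were higher (53.5%, against 23.9% of all tested genes) and 9 lower (12.7%, against 15%). The remaining 9 calls, for Arid1b, Arid3a, Dnmt3a, Ezh2, Hdac1, Kdm2a, Kdm3a, Kmt2d and Kmt2e, rest on the scaling.

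**Figure D1:**
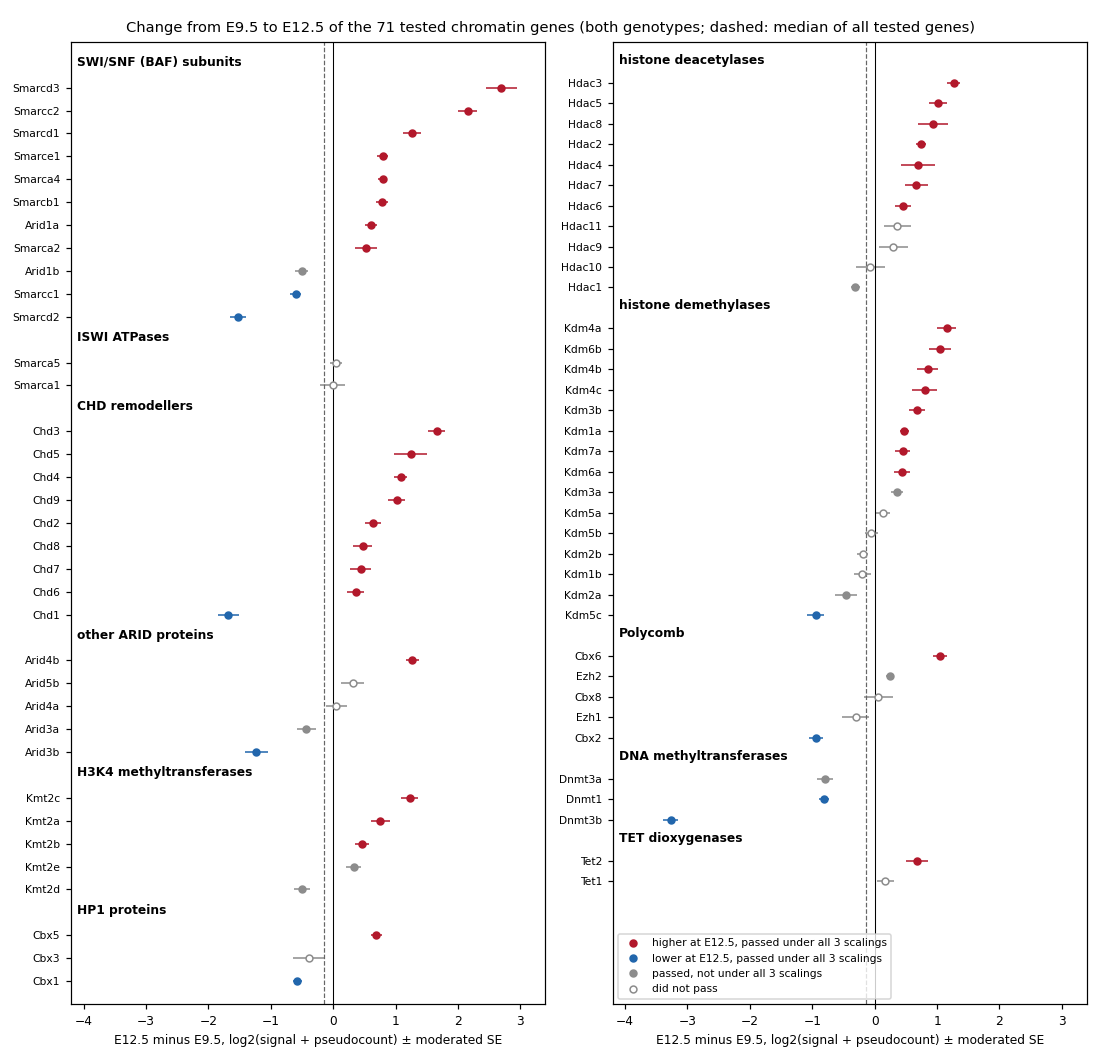
Change from E9.5 to E12.5 of the 71 tested genes by family, as the limma estimate with its moderated SE on the log2(signal + pseudocount) scale. Red and blue points passed under all 3 scalings, filled grey points passed but not under all 3, and open points did not pass. The dashed line is the median of all tested genes at -0.14, and the 3 DNA methyltransferases lie to its left.

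Probe sets of 1 gene often went different ways. Of the 33 passing members with several probe sets above the filter, 14 (42.4%) had all of them in 1 direction, against 65.4% of 3439 such genes overall. Taking the mean of all probe sets of a gene, 24 members rose and 10 fell, where 2311 and 3047 of 10074 tested genes did. Counting only members that passed under all 3 scalings with every probe set above the filter in 1 direction left 26 higher (36.6%, against 20.5% of all tested genes) and 5 lower (7.04%, against 12.6%). This last rule was chosen after the data were seen. Genes with only 1 probe set above the filter meet its direction part by default. Among the 26 these include Smarcc2, Smarcd3, Chd3 and Hdac3. The 5 were Arid3b, Cbx1, Cbx2, Chd1 and Dnmt3b, of which Arid3b and Cbx2 have only 1 such probe set. Probe sets above the filter that disagree are given beside the genes below.

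SWI/SNF subunits mostly rose, with a median change 0.93 above that of all tested genes. All 11 passed the age test, 8 upward and 3 downward, and 10 of those calls held under all 3 scalings. Smarcc2, a scaffold subunit known to compete with Smarcc1 for the complex in cortical progenitors, had wild-type signals of 94.1, 178 and 483 over the 3 ages, and knockout signals of 118, 145 and 501. Both E12.5 arrays stood above all others, with E9.5 lowest in both genotypes. The change was 2.16 ± 0.16 (moderated SE, here and below over 2 arrays per age; adjusted p = 3.92e-06). Smarcc1, its counterpart in progenitors, went from 1779 and 1707 at E9.5 to 1241 and 1385 at E10.5 and 1144 and 1148 at E12.5 (wild type first, here and below). It fell by 0.60 ± 0.08 (adjusted p = 0.000164), although its other probe sets above the filter changed by 0.59 and 0.11.

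The Smarcd subunits, which link the complex to transcription factors, moved in different directions on their brightest probe sets. Smarcd3 had signals of 57.0 and 83.1 at E9.5, 253 and 144 at E10.5, and 486 and 478 at E12.5. The ages did not overlap, and the change of 2.70 ± 0.24 was the largest upward one of any member (adjusted p = 1.4e-05). Smarcd1 went from 88.5 and 112 through 130 and 137 to 236 and 262 (1.27 ± 0.14, adjusted p = 4.73e-05). Smarcd2 ran the other way, from 609 and 766 through 431 and 552 to 243 and 225, a fall by 1.52 ± 0.13 (adjusted p = 1.01e-05). Its second probe set changed by -0.68 and a dim one by 0.03.

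The core subunits rose by less. Smarca4, the main ATPase of the complex in the embryo, had signals of 1140 and 1180 at E9.5, 1269 and 1342 at E10.5, and 1968 and 2060 at E12.5 (0.79 ± 0.07, adjusted p = 1.46e-05), while a dimmer probe set changed by -0.42. Smarce1 and Smarcb1 changed by 0.80 ± 0.09 and 0.79 ± 0.09, and another probe set of Smarcb1, which varied widely between arrays, by -0.35. The alternative ATPase Smarca2 rose by 0.52 ± 0.18, with 0.89 in wild type and 0.16 in the knockout, and did not pass without the wild-type array of E9.5 (0.26) or of E12.5 (0.24). Arid1a, the DNA-binding subunit of the canonical complex, rose by 0.61 ± 0.09, and both of its probe sets were higher. Its paralog Arid1b fell by 0.51 ± 0.10, from 496 and 491 at E9.5 to 271 and 276 at E10.5 and 355 and 337 at E12.5, but did not pass under all 3 scalings.

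The upstream sequences of 4 genes that moved with age show how unlike the start regions of these genes are. Eligible were members passing under all 3 scalings whose listed start lies within 100 bases of the outer end of the gene. Members on a chromosome that was left out of this choice were not eligible. Shown are the sequences of the 2 largest risers and the 2 largest fallers among the eligible members. Each is the 250 bases before the start, 5′ to 3′ on the gene's strand, from RefSeq with the build GRCm38.p6, with GC boxes (GGGCGG on either strand, overlaps included) in capitals. Smarcc2 lies at chr10:128458986-128459235 (+), Smarcd1 at chr15:99702037-99702286 (+), Dnmt3b at chr2:153649199-153649448 (+) and Arid3b, for which 2 starts are listed, at chr9:57836780-57837029 (-).
Smarcc2: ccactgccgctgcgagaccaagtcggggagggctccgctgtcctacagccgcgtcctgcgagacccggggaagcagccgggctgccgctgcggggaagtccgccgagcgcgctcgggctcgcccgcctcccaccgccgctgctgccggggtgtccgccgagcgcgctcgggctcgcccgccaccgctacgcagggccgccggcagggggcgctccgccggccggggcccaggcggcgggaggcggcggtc
Smarcd1: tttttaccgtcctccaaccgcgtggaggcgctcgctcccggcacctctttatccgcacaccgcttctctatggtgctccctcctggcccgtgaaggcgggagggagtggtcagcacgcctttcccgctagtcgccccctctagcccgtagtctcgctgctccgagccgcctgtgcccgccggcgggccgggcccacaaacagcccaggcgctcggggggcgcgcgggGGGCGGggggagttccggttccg
Dnmt3b: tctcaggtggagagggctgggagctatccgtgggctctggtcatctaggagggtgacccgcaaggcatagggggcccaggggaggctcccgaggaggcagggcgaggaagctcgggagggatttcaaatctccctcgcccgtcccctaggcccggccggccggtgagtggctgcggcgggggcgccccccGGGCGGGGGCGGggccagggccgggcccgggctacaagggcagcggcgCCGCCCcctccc
Arid3b: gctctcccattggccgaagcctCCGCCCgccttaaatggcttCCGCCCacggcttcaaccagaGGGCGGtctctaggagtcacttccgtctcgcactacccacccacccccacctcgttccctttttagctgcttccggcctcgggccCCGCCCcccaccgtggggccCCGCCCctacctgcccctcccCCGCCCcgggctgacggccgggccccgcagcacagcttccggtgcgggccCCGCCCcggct
The Smarcc2 window holds 40 CpG and no GC box, that of Smarcd1 29 CpG and 1 GC box, that of Dnmt3b 21 CpG and 3 GC boxes and that of Arid3b 23 CpG and 7 GC boxes.

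Upstream windows were listed for 57 of the 75 members. A GC box was present in 43 of them (75.4%), in 62% of 9005 tested genes and in 33% of all 27025 listed genes. The median number of CpG was 20 in members, 17 in tested genes and 6 in all listed genes. Members that rose under all 3 scalings had a median of 21 (29 windows) and those that fell 16 (7 windows). The E2F site forms TTTCCCGC and TTTGGCGC were each found in 1 member window (1.75%), against 1.91% and 0.866% of tested genes. The E-boxes CAGATG and CAGCTG were found in 7 (12.3%) and 9 (15.8%) member windows, against 9.71% and 11.1% of tested genes. Each motif was searched on both strands, and such matches are descriptions of the letters in these windows.

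BAF subunits outside the rule were counted from a list that holds their known exchange partners. Of 16 tested, 7 rose and 5 fell, against 25.9% and 36.9% of all genes. Ss18, a subunit of the progenitor complex, fell by 0.96 ± 0.09 (1362 and 1330 at E9.5, 674 and 707 at E12.5), and Actl6a, an actin-like subunit of that complex, by 0.75 ± 0.13 (1561 and 1474 at E9.5, 864 and 934 at E12.5). The zinc-finger factors Bcl11a and Bcl11b, which join the complex in neurons, had E12.5 signals of 659 and 629, and of 666 and 534. At E9.5 Bcl11a stood at 6.14 and 38.5 and Bcl11b at 17.4 and 32.1, around the filter limit of 23.0, so the size of their rises is imprecise (for Bcl11a 5.72 in wild type and 3.82 in the knockout). A further 5 exchange subunits are named after their values were seen. Phf10, of the progenitor complex, fell by 0.60 ± 0.09. Ss18l1 and Dpf1, of the neuronal complex, rose by 1.67 ± 0.17 and 2.24 ± 0.22. Dpf1 had lower knockout values at each age (-1.23, -0.84 and -0.57), and its genotype test did not pass (adjusted p = 0.408). Dpf3, a further neuronal subunit, lay under the filter at 9.10 to 15.3 in all arrays. Actl6b, the neuronal counterpart of Actl6a, lay under the filter with signals of 7.51 and 8.87 at E9.5, 12.03 and 2.44 at E10.5, and 115 and 102 at E12.5, so it was high only in the E12.5 arrays. These values come from the tissue in which all 10 neuron markers rose, as given above.

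**Figure D2:**
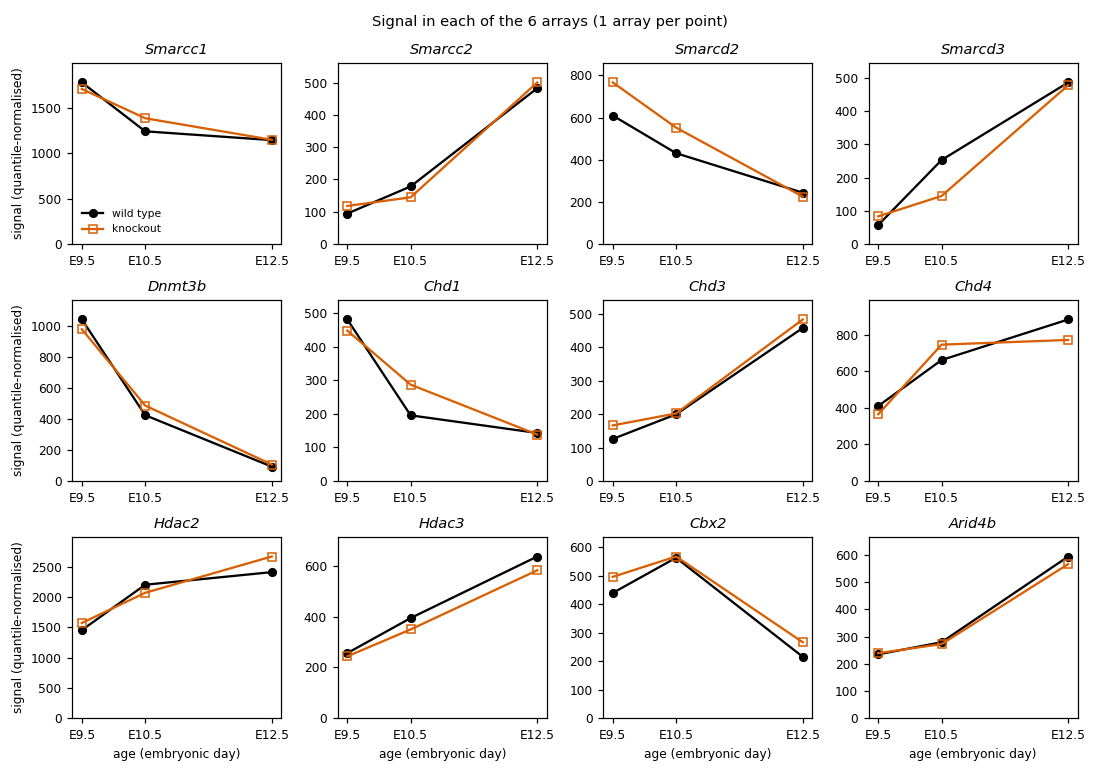
Quantile-normalised signal (y axis, from 0) of 12 genes in each of the 6 arrays by embryonic age (x axis), with wild type in black circles and the knockout in orange squares, 1 array per point. Smarcc2 and Smarcd3 reach 478 to 501 at E12.5 while Dnmt3b declines to 92.4 and 106, and Smarcd3 at E10.5 (253 and 144) has the widest ratio between genotypes among these panels.

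The CHD family of remodellers was mostly higher at the later age on the brightest probe sets. All 9 members passed, 8 upward and Chd1 downward, and each call held under all 3 scalings. The choice of probe set mattered, however. Each other probe set above the filter of Chd2, Chd4, Chd7, Chd8 and Chd9 was lower at E12.5. Chd4, Chd6 and Chd7 were lower with the mean of all probe sets. Chd3, Chd4 and Chd5 are alternative ATPases of the NuRD complex, which joins remodelling to histone deacetylation. Chd3 had signals of 126 and 166 at E9.5, 199 and 202 at E10.5, and 457 and 483 at E12.5 (1.66 ± 0.13, adjusted p = 6.87e-06). Chd4 rose mainly in the first interval, from 410 and 365 to 661 and 745 and then 883 and 771 (1.08 ± 0.11), while its 2 dimmer probe sets changed by -0.86 and -0.62. Chd5, known from neurons, was dim at E9.5 (26.0 and 23.3) and reached 87.0 and 51.3 at E12.5 (1.24 ± 0.26, adjusted p = 0.0025); without the wild-type E12.5 array it did not pass (1.10).

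Chd1, a reader of histone marks at active genes, was the exception. Its signal was 481 and 448 at E9.5, 195 and 287 at E10.5, and 143 and 138 at E12.5, a fall by 1.68 ± 0.16 (adjusted p = 2.1e-05), and its other 3 probe sets changed by -1.77 to -0.10. Chd9 and Chd2 rose by 1.02 ± 0.14 and 0.63 ± 0.13, and a dimmer probe set of each by -0.34 and -0.25. Chd8 and Chd7, both known from human neurodevelopmental disorders, rose by 0.47 ± 0.16 and 0.44 ± 0.16. Chd7 changed by 0.16 in wild type and 0.72 in the knockout, and its second probe set by -0.71. The other probe sets of Chd8 changed by -0.30 and -0.03. Chd6 rose by 0.36 ± 0.13. Chd6 did not pass without any 1 of the E9.5 or E12.5 arrays (0.31 to 0.41). Chd7 did not pass without the knockout array of E9.5 (0.28) or E12.5 (0.18). Chd8 did not without the wild-type E9.5 array (0.22) or either E12.5 array (0.48 and 0.47).

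The ISWI ATPases, which space nucleosomes evenly, did not pass. Smarca5 changed by 0.04 ± 0.09, with signals of 1330 to 1585 in all 6 arrays. Smarca1 changed by -0.38 in wild type and 0.38 in the knockout.

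Among the other ARID proteins, which bind DNA through the domain that names them, 1 of 5 tested rose and 2 fell. Arid4b, a subunit of the Sin3 deacetylase complex, had signals of 234 and 239 at E9.5, 279 and 272 at E10.5, and 595 and 567 at E12.5 (1.27 ± 0.11, adjusted p = 8.78e-06), and its other 4 probe sets above the filter were 0.77 to 1.84 higher. Arid3b had 127 and 138 at E9.5, 99.3 and 161 at E10.5, and 45.3 and 61.4 at E12.5, a fall by 1.23 ± 0.18 (adjusted p = 0.000277). Arid3a fell by 0.43 ± 0.16 after a peak of 150 and 143 at E10.5; on the values as deposited it was 0.30 higher, and it did not pass without any 1 of the E9.5 or E12.5 arrays (-0.51 to -0.34). Arid4a and Arid5b did not pass (0.05 ± 0.17 and 0.31 ± 0.19). Arid5a, under the filter, was at 24.5 and 23.1 at E9.5 and at 2.53 to 10.4 in the later arrays.

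Of the 11 histone deacetylases 7 rose, 1 fell and 3 did not pass. Hdac3, the catalytic subunit of the NCoR corepressor complex, had signals of 257 and 244 at E9.5, 395 and 351 at E10.5, and 639 and 585 at E12.5 (1.27 ± 0.10, adjusted p = 7.19e-06). The paralogs Hdac1 and Hdac2, which share the NuRD, Sin3 and CoREST complexes, moved apart. Hdac2 went from 1457 and 1574 through 2208 and 2075 to 2418 and 2677 (0.75 ± 0.08, adjusted p = 3.41e-05), and its other probe sets were 0.80 and 0.49 higher. Hdac1, with 1591 and 1443 at E9.5 and 1235 and 1208 at E12.5, fell by 0.31 ± 0.08 (adjusted p = 0.00559), a call not made under all 3 scalings, nor without the wild-type array of E9.5 (-0.26) or of E12.5 (-0.28). Hdac8 was brightest at E10.5, with 17.9 and 19.8 at E9.5, 58.1 and 65.9 at E10.5, and 42.4 and 41.5 at E12.5 (0.94 ± 0.23 between the outer ages, and 0.85, not passing, without the wild-type E12.5 array).

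The class of deacetylases that shuttle between nucleus and cytoplasm includes Hdac4, Hdac5, Hdac7 and Hdac9. Hdac5 rose by 1.02 ± 0.14, from 109 and 111 at E9.5 to 244 and 216 at E12.5. Hdac4 and Hdac7 rose by 0.69 ± 0.27 and 0.67 ± 0.18, and neither passed without the wild-type E9.5 array (0.24 and 0.54) or the knockout E12.5 array (0.76 and 0.51). Hdac4 also did not pass without the wild-type E12.5 array (0.63), and its other probe sets changed by 0.27 and -0.05. Hdac9 changed by 0.30 ± 0.23 and did not pass. Hdac6, a cytoplasmic enzyme that acts on tubulin, rose by 0.45 ± 0.12, but did not pass without the knockout array of E9.5 (0.32) or of E12.5 (0.31). Hdac10 and Hdac11 did not pass (-0.07 ± 0.23 and 0.36 ± 0.22).

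Of the 15 histone demethylases 9 rose, 2 fell and 4 did not pass. The Kdm4 enzymes, which act on H3K9 and H3K36, rose together. Kdm4a went from 96.3 and 93.3 at E9.5 through 148 and 182 to 231 and 208 at E12.5 (1.16 ± 0.15, adjusted p = 0.000138), Kdm4b by 0.85 ± 0.17 and Kdm4c by 0.80 ± 0.20, the last not passing without the knockout E12.5 array (0.76). Kdm1a, the H3K4 demethylase of the CoREST complex, rose by 0.48 ± 0.07 (1474 and 1460 at E9.5, 2012 and 2081 at E12.5), and its second probe set was 0.52 higher. Kdm6b and Kdm6a remove the Polycomb mark on H3K27. Kdm6b went from 111 and 80.7 through 155 and 160 to 185 and 221 (1.04 ± 0.18), while its other probe sets changed by -0.23 and -0.44. Kdm3b rose by 0.68 ± 0.13, Kdm7a by 0.45 ± 0.12 and Kdm3a by 0.36 ± 0.09, the last not under all 3 scalings nor without the knockout E12.5 array (0.29). The second probe set of Kdm3b changed by -0.43. Kdm7a did not pass without the knockout E9.5 array (0.41) or the wild-type E12.5 array (0.41). Kdm2b, which brings a Polycomb complex to CpG islands, did not pass for age (-0.19 ± 0.09), nor did Kdm1b, Kdm5a and Kdm5b. Kdm2a fell by 0.46 ± 0.18, with 1 probe set 0.70 higher, and was 0.20 higher on the values as deposited. It did not pass without the knockout E9.5 array (-0.35) or either E12.5 array (-0.27 and -0.65).

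The X-linked demethylases Kdm5c and Kdm6a are known to be expressed from both X chromosomes in females, so the sex of the embryos, which the labels do not give, bears on them. Xist, the RNA of the inactive X, had signals of 725 and 453 at E9.5, 573 and 11.7 at E10.5, and 9.87 and 17.6 at E12.5. The Y-linked gene Kdm5d, a paralog of Kdm5c, stood at 102 to 166 in all 6 arrays. Kdm5c had 269 and 266 at E9.5, 165 and 186 at E10.5, and 124 and 148 at E12.5, a fall by 0.95 ± 0.13 (adjusted p = 0.000203), although its probe sets disagreed, 2 of 6 being 0.60 and 0.55 higher. Kdm6a went the other way, with 160 and 142 at E9.5, 172 and 161 at E10.5, and 220 and 195 at E12.5 (0.44 ± 0.13, adjusted p = 0.0148), but did not pass without any 1 of the E9.5 or E12.5 arrays (0.42 to 0.46). At E10.5, where Xist was 573 in wild type and 11.7 in the knockout, the genotypes differed by 0.16 for Kdm5c and -0.09 for Kdm6a. Other probe sets above the filter differed there by -1.18 to 0.26 for Kdm5c and by -0.19 for Kdm6a. Xist was high in both E9.5 arrays and low in both E12.5 arrays. Xist level and age thus cannot be told apart in the age changes of Kdm5c and Kdm6a. In all 5 members are X-linked, the others being Hdac6, Hdac8 and Smarca1, and the part of sex in their values was not tested.

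The Kmt2 genes encode H3K4 methyltransferases. Of 5, 4 rose and 1 fell. Kmt2c, which marks enhancers, had signals of 210 and 194 at E9.5, 210 and 263 at E10.5, and 503 and 460 at E12.5 (1.23 ± 0.14, adjusted p = 4.93e-05), and its other probe sets changed by 1.55, 0.95 and -0.43. Its paralog Kmt2d fell by 0.50 ± 0.12, from 388 and 354 to 267 and 254, though not under all 3 scalings nor without the wild-type E9.5 array (-0.40) or the knockout E12.5 array (-0.44). Kmt2a and Kmt2b rose by 0.76 ± 0.15 and 0.47 ± 0.11, and Kmt2e by 0.33 ± 0.12, the last not under all 3 scalings. Other probe sets of Kmt2e went both ways, by 0.65, 0.03, -0.41 and -0.81. Kmt2b did not pass without the knockout array of E9.5 (0.40) or of E12.5 (0.43), nor Kmt2e without the wild-type E9.5 array (0.12) or either E12.5 array (0.27 and 0.40).

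Polycomb and HP1 genes moved in both directions. Ezh2, the H3K27 methyltransferase of Polycomb complex PRC2, stood at 1671 and 1777 at E9.5, 1851 and 1893 at E10.5, and 1962 and 2138 at E12.5. It passed at 0.25 ± 0.07 (adjusted p = 0.0114), but with a common trimmed mean it was -0.02, and without either E12.5 array it did not pass (0.28 and 0.22). Its paralog Ezh1 did not pass (-0.30 ± 0.21). The Cbx subunits of the other Polycomb complex, PRC1, bind the mark that Ezh2 lays down. Cbx2 had 440 and 497 at E9.5, 564 and 568 at E10.5, and 215 and 266 at E12.5, so that the E12.5 arrays lay below all others (a fall by 0.95 ± 0.11, adjusted p = 6.46e-05). Cbx6 rose from 209 and 232 at E9.5 to 454 and 470 at E12.5 (1.04 ± 0.11, adjusted p = 4.27e-05), nearly all of it after E10.5, when it stood at 234 and 226. Its second probe set was 2.06 higher. Cbx8 did not pass (0.06 ± 0.23), and Cbx7 lay under the filter at 11.8 to 24.1.

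The HP1 proteins bind methylated H3K9 in silent chromatin. Cbx1 fell by 0.57 ± 0.07 (2826 and 3123 at E9.5, 2006 and 1984 at E12.5; adjusted p = 8.46e-05), and all 5 of its probe sets were lower. Cbx5 rose by 0.69 ± 0.09 on its brightest probe set (1122 and 1224 at E9.5, 1996 and 1799 at E12.5), but its other 3 above the filter changed by -1.22 to -0.17. Cbx3 was dim on its single probe set (24.7 to 42.2) and did not pass. A further 4 probe sets name Cbx3 together with a pseudogene and were not used.

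All 3 tested DNA methyltransferases fell on their brightest probe sets, Dnmt3a not under all 3 scalings. Dnmt3b, the de novo enzyme of the early embryo, had signals of 1042 and 979 at E9.5, 424 and 487 at E10.5, and 92.4 and 106 at E12.5. The ages did not overlap, and the fall by 3.27 ± 0.12 was the largest change of any member in either direction (adjusted p = 2.71e-07). Its second probe set changed by -1.99. Dnmt1, which copies methylation after replication, went from 1162 and 1129 through 947 and 966 to 641 and 661, a fall by 0.81 ± 0.08 (adjusted p = 2.77e-05). Its other probe sets changed by -0.86 and 0.64.

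Dnmt3a, the de novo enzyme known from later neural development, fell by 0.80 ± 0.13 on its brightest probe set (265 and 343 at E9.5, 164 and 177 at E12.5). Its other 4 probe sets changed by 0.02 to 1.28, and the mean of all 5 by 0.43. The direction of Dnmt3a thus depends on the probe set, and it did not pass under all 3 scalings. The cofactor gene Dnmt3l lay under the filter, with 2.41 to 20.6 in all arrays. Of the TET enzymes Tet2 rose by 0.67 ± 0.18, with 119 and 148 at E9.5, a low of 82.3 and 65.1 at E10.5, and 228 and 204 at E12.5, and its second probe set was 1.53 higher. It did not pass without the wild-type array of E9.5 (0.40) or of E12.5 (0.60). Tet1 did not pass (0.17 ± 0.14), and Tet3, under the filter, stood at 1.02 to 11.3.

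Between the outer ages members changed similarly in both genotypes, while the first interval differed in how many members moved. From E9.5 to E10.5, 25 members (35.2%) changed by at least 0.5 in wild type and 13 (18.3%) in the knockout. Of all tested genes 31.7% and 23.2% did. From E10.5 to E12.5, 32 members (45.1%) did in wild type and 36 (50.7%) in the knockout, against 43.1% and 44.2%. With 1 array per group these counts were not tested. Higher at each step in both genotypes were 24 members (33.8%, against 13.9% of all tested genes), and lower at each step were 8 (11.3%, against 22.8%). The 8 were Cbx1, Chd1, Dnmt1, Dnmt3b, Kdm5c, Kmt2d, Smarcc1 and Smarcd2. Dnmt3b changed by -1.28 in wild type and -0.998 in the knockout from E9.5 to E10.5, and by -2.12 and -2.13 from E10.5 to E12.5. Smarcc2 differed in timing, with 0.88 in wild type and 0.28 in the knockout in the first interval and 1.41 and 1.75 in the second. Smarcd3 did too, with 2.03 and 0.75 and then 0.93 and 1.68. Wild type and knockout share no array. Their changes between the outer ages correlated at 0.949 over the 71 members, against 0.925 over all tested genes. The median gap between the genotypes was 0.152 for members and 0.198 for all tested genes. The direction was the same for 65 of 71 members, where it was the same for 9777 of 11091 tested genes, and Arid4a, Arid5b, Cbx8, Kdm5b, Smarca1 and Smarca5 differed in it.

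**Figure D3:**
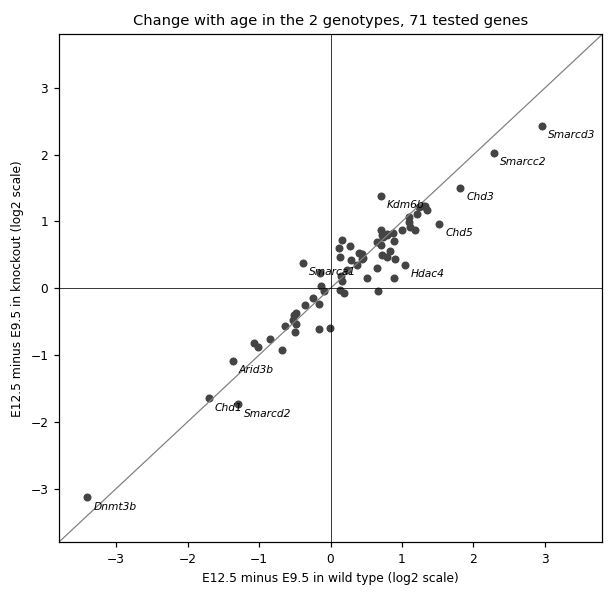
Change from E9.5 to E12.5 of the 71 tested genes in wild type (x axis) and in the knockout (y axis) on the log2 scale, with the line of equal change. Points follow the line from Dnmt3b at -3.41 and -3.13 to Smarcd3 at 2.96 and 2.44, while Smarca1 lies off it at -0.38 and 0.38.

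Few differences between genotypes were found. In limma with age as a block, 0 of 71 members passed in either direction, where 0.018% of all tested genes were higher and 0.0541% lower in the knockout. At an unadjusted p under 0.05 stood 4 members (5.63%), against 4.61% of all tested genes. They were Arid3b (0.39 ± 0.15), Kdm2b (0.20 ± 0.07), Chd5 (-0.51 ± 0.21) and Kmt2a (-0.30 ± 0.13), each with a limma adjusted p of 0.999. With 3 pairs of arrays, this does not show that the genotypes were alike. The knockout value was the higher at all 3 ages for 14 members (19.7%, against 13.1% of all tested genes) and the lower for 7 (9.86%, against 11.5%).

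By smallest difference over ages, the members higher throughout were led by Kdm4b (0.31, 0.14 and 0.27 in order of age), Chd9 (0.44, 0.19 and 0.13), Arid3b (0.12, 0.67 and 0.39), Arid4a (0.25, 0.16 and 0.10) and Kdm2b (0.16, 0.35 and 0.08). The Kdm2b signals were 1304, 917 and 1171 (wild type) against 1456, 1170 and 1242 (knockout). Second probe sets did not keep 1 direction for Kdm2b (0.26, -0.19 and 0.09), Chd9 (-0.04, 0.49 and 0.41) and Arid4a (0.43, 0.31 and -0.24), while Kdm4b and Arid3b have no second one above the filter. Lower throughout were Kmt2a (-0.22, -0.55 and -0.14), Chd5 (-0.13, -0.71 and -0.69), Kdm6a (-0.17, -0.09 and -0.17), Hdac3 (-0.07, -0.17 and -0.13) and Kdm3b (-0.03, -0.43 and -0.08). Those of Chd5 were 26.0, 33.9 and 87.0 (wild type) against 23.3, 18.1 and 51.3 (knockout). Second probe sets changed sign for Kmt2a (0.06, -0.18 and 0.08), Kdm6a (-0.02, -0.19 and 0.14) and Kdm3b (0.25, -0.11 and 0.25), and Chd5 and Hdac3 have 1 probe set each. Chd5 is known from neurons, and the early neuron markers summed to 2362 (wild type) and 1382 (knockout) at E10.5. At E12.5 these sums were 14865 and 15230. Whether tissue makeup has a part in the Chd5 differences was not tested.

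At a single age, where 1 array per genotype allows no test, no member differed 2-fold on its brightest probe set with the higher signal above the median of all values (24.0). Among 81 other probe sets above the filter, of 41 members, 2 did. That of Smarcb1 differed by 1.29 at E10.5 (181 and 451) and by -1.84 at E12.5 (759 and 207), while the brightest of Smarcb1 differed by -0.10 and 0.06. That of Kdm5c differed by -1.18 at E10.5 (37.3 and 12.9). Among all tested genes such differences were found in 0.685% (higher) and 0.469% (lower) at E9.5, 0.424% and 0.82% at E10.5, and 0.379% and 0.216% at E12.5. The member differences ran from -0.44 to 0.76 at E9.5, -0.78 to 0.67 at E10.5 and -0.69 to 0.61 at E12.5. A difference of at least 0.5 was found for 2 members at E9.5 (2.82%, against 8.50% of all tested genes), 7 at E10.5 (9.86%, against 9.12%) and 2 at E12.5 (2.82%, against 6.10%). The widest were Smarcd3 at E10.5 (-0.78, signals 253 and 144), Hdac4 at E9.5 (0.76, 28.1 and 52.1), Chd5 at E10.5 (-0.71) and E12.5 (-0.69, 87.0 and 51.3), Arid3b at E10.5 (0.67, 99.3 and 161) and Smarca1 at E12.5 (0.61, 149 and 230). Smarcd3 rose with age, and its lower knockout value at E10.5 stands beside the lower neuron marker sum of that array. The part of tissue makeup in it was not tested.

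**Figure D4:**
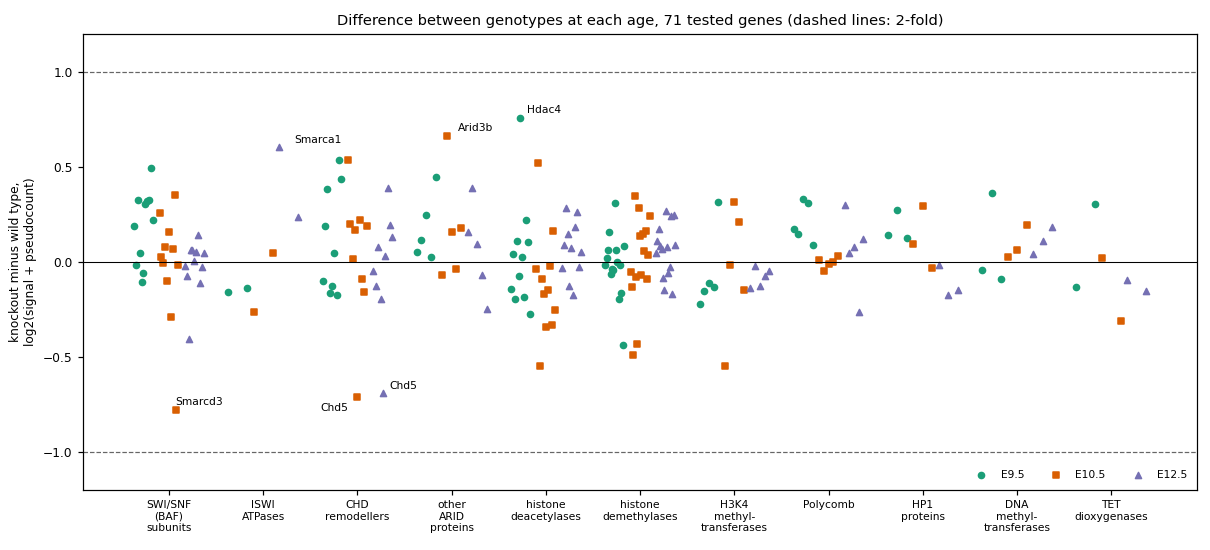
Knockout minus wild type at E9.5 (green circles), E10.5 (orange squares) and E12.5 (purple triangles) for the 71 tested genes by family, on the log2(signal + pseudocount) scale, 1 pair of arrays per age. All points lie inside the dashed 2-fold lines, and the widest are Smarcd3 at -0.78 and Hdac4 at 0.76.

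Other chromatin genes were counted from lists chosen by function, where the shares of all tested genes were 25.9% higher and 36.9% lower. Of 14 other remodellers 5 rose and 5 fell, led by Baz2b (0.71 ± 0.11) and Ep400 (0.57 ± 0.10) upward and by Cecr2 (-1.14 ± 0.19, not under all 3 scalings) and Hells (-0.86 ± 0.09), a remodeller needed for DNA methylation, downward. Of 17 NuRD, Sin3 and CoREST subunits 6 rose and 6 fell. Rcor2, a CoREST subunit of neural progenitors, rose by 1.39 ± 0.14, and Mbd2 fell by 1.28 ± 0.15. Of 21 other Polycomb subunits 9 rose and 5 fell, with Pcgf2 at 1.25 ± 0.26, Phc3 at 1.08 ± 0.16, Yaf2 at -0.88 ± 0.09 and Pcgf6 at -0.64 ± 0.13, the last not under all 3 scalings. Of 14 acetyltransferases and sirtuins 5 rose and 5 fell, with Kat2b at 1.54 ± 0.14 and Sirt1, a deacetylase that depends on NAD, at -0.997 ± 0.11. Of 19 other histone methyltransferases and partners 4 rose and 8 fell, with Ehmt2, an H3K9 methyltransferase, at 1.15 ± 0.09 and Carm1, an arginine methyltransferase, at -1.13 ± 0.13. Of 9 methyl-DNA readers and partners 1 rose (Gadd45g, 2.56 ± 0.22) and 2 fell. No gene of these lists passed the genotype test, where 0.018% of all tested genes were higher and 0.0541% lower in the knockout. Under all 3 scalings 23.9% of all tested genes were higher and 15% lower. Counted in that way, the rises and falls of these 6 lists were 4 and 1, 6 and 2, 6 and 1, 5 and 1, 4 and 4, and 1 and 1.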

How the data were processed

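Gene expression was measured on 6 Affymetrix mouse arrays, 1 per genotype and age. The authors deposited 1 linear intensity per probe set. The submitters' processing notes name MAS5, while its version and target level are not given in the sources used.

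The arrays were quantile-normalised (limma's normalizeQuantiles), and values taken as log2(signal + 6.50), the lower quartile of all deposited values. Probe sets naming 1 gene symbol in the platform annotation were used (34958 of 45101, with 932 naming several and 9211 none listed), and the one with the highest mean deposited value stands for its gene. A gene was tested if its mean log2 value exceeded the probe set median. limma 3.58.1 in R 4.3.3 (lmFit, eBayes with a variance trend) was fitted to all genes and 6 arrays with age and genotype as terms (2 residual degrees of freedom, 9.40 after moderation). P-values were adjusted by Benjamini-Hochberg at 0.05 over 11091 genes. Both fits were tested on simulated data. Named genes are members passing the genotype fit, the largest up to 10 passing the age fit in each direction, members 2-fold apart at an age, up to 5 in each direction with 1 direction at all ages, and a list of known members. Other members are named to account for each of them. From each other list up to 2 genes per direction are named. Members and lists were chosen with earlier results of these data known. Scaling, pseudocount, filter, probe set choice, variance trend, age block and left-out arrays were varied.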

Additional observations from a re-analysis of the deposited data

Results flagged for a closer look

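Genes are listed here where 2 groups moved in opposite directions by at least 0.25 on the log2 scale. With 1 array per group no such difference was tested. From E9.5 to E12.5, Smarca1 changed by -0.38 in wild type and 0.38 in the knockout. The knockout minus wild-type difference changed sign between ages, at that size on both sides, for 9 members. Smaller sign changes were common, as only 14 members were higher and 7 lower in the knockout at all 3 ages. The share of all tested genes under this rule is not given, so the 9 do not set the members apart. The difference was 0.31 at E9.5 and -0.27 at E12.5 for Ezh1, and 0.33 and -0.40 at the same ages for Smarca2. Hdac4 stood at 0.76 at E9.5 and -0.35 at E10.5, Smarcd3 at 0.50 and -0.78, Smarcc2 at 0.30 and -0.29, and Tet2 at 0.31 and -0.31. The other 3 were lower at E10.5 and higher at E12.5: Hdac11 (-0.55 and 0.29), Hdac7 (-0.33 and 0.26) and Smarca1 (-0.27 and 0.61).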

How the results depend on the processing

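No paired analysis by replicate number was possible because the labels carry no replicate numbers; the genotype fit already pairs arrays by age. In that fit 0 members passed under each alternative, among them no age block (24 of all tested genes at an unadjusted p under 0.05, 0 members), no variance trend (535 and 4) and the values as deposited (2930 and 29). The added rule below aside, members rising with age ranged from 24 to 52 and falling from 9 to 16 over the age-test alternatives. With the mean of all probe sets 24 members rose, and on the values as deposited 9 fell. Over the same alternatives 2094 to 5448 of all tested genes rose and 1663 to 4155 fell, of 10074 to 18194 tested. With every probe set above the filter in 1 direction under all 3 scalings, 26 members rose and 5 fell, those with only 1 such probe set included. Of all tested genes 20.5% and 12.6% did. Leaving out 1 array gave 29 to 41 members rising and 12 to 16 falling. Of all 11091 tested genes, 2094 to 2943 rose and 3049 to 4155 fell. With the mean of all probe sets 1 member, Kmt2d, was at least 2-fold lower in the knockout at E9.5. Of the 56 age calls 35 were kept without any 1 array and 20 under every setting, 14 higher (Arid1a, Arid4b, Cbx6, Chd3, Hdac2, Hdac3, Hdac5, Kdm1a, Kdm4b, Kmt2a, Kmt2c, Smarcc2, Smarcd1 and Smarcd3) and 6 lower (Arid3b, Cbx1, Chd1, Dnmt1, Dnmt3b and Smarcd2). The share of calls kept over all tested genes is not given, so these counts do not set the members apart from other genes.

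Directions turned in these cases, and the cause was not tested. On the values as deposited the age change was 0.30 for Arid3a, 0.26 for Cbx3, 0.45 for Ezh1, 0.68 for Hdac10, 0.39 for Kdm1b, 0.20 for Kdm2a, 0.01 for Kdm2b, 0.39 for Kdm5b and 0.58 for Smarca1. With a common trimmed mean it was 0.05 for Ezh1, -0.02 for Ezh2, 0.28 for Hdac10, 0.16 for Smarca1 and -0.20 for Smarca5, and with a pseudocount of 32 it was 0.00 for Smarca1. With the mean of all probe sets it was -0.27 for Cbx5, -0.14 for Chd4, -0.06 for Chd6, -0.14 for Chd7, 0.43 for Dnmt3a, 0.17 for Kdm2a, -0.26 for Kdm5a and -0.02 for Kmt2e, and Chd8 at E9.5 differed by -0.24 between genotypes. Without 1 array the age change ranged from -0.01 to 0.11 for Arid4a, -0.09 to 0.21 for Cbx8, -0.20 to 0.07 for Hdac10, -0.16 to 0.05 for Kdm5b, -0.41 to 0.41 for Smarca1 and -0.10 to 0.18 for Smarca5. The single arrays per group and the level of the dimmest genes limit the precision.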
